A study of Mus musculus with 7 samples.

Results

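The genes described here regulate skeletal muscle stem cells and the making of muscle fibres. They are Pax7, Myf5, Myod1, Myog, Myf6, Mymk, Mstn, Chrng, Chrna1 and Ncam1, 10 of the 42689 mouse genes to which the transcripts of the data could be assigned. The rule lists them by gene symbol, and they were followed through 7 RNA-sequencing libraries of mouse hindlimb tendon, all from animals of C57BL/6 background. The tenotomy group (n = 2) was the left Achilles tendon, cut at its midpoint in mice that at the same time received a burn of the back (60 °C for 18 s over 30% of the body surface), and was taken after 3 weeks. The contralateral libraries (n = 3) held the uncut right tendon of burned and tenotomised mice at the same time, so that it shares the burn with the tenotomy group. The uninjured group (n = 2) was tendon of wild-type mice with neither burn nor tenotomy. The tissue taken lay between the gastrocnemius muscle and the heel bone. The labels give no sex, no age and no animal numbers, and do not say whether the libraries of a group came from separate animals, so p-values measure the spread between these libraries, which may be technical. The study from which the libraries come is known for heterotopic ossification, the formation of bone in soft tissue, whereas the genes here concern the muscle that adjoins the tendon.

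Muscle stem cells, or satellite cells, lie against the fibre and are marked by the transcription factor Pax7. When they are activated they pass through the myogenic regulatory factors, basic helix-loop-helix proteins that bind short DNA motifs called E-boxes: Myf5 and Myod1 commit a cell to the muscle lineage, Myog (myogenin) drives its differentiation and Myf6 (MRF4) is the member that mature fibres keep. The membrane protein myomaker (Mymk) then allows myoblasts to fuse. Myostatin (Mstn) is a secreted inhibitor of muscle growth. Chrna1 and Chrng encode subunits of the muscle acetylcholine receptor, the alpha subunit being part of every muscle receptor and the gamma subunit of the fetal form, which returns in denervated fibres. Ncam1 is a cell adhesion molecule of satellite cells, denervated fibres, nerve and Schwann cells, and of human natural killer cells.

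In GRCm38 coordinates, with the GENCODE M21 annotation, all are protein-coding genes. Pax7 (ENSMUSG00000028736.13) lies on chromosome 4 from 139737062 to 139833528. Myf5 (chromosome 10, 107482908 to 107486134) and Myf6 (chromosome 10, 107492853 to 107494737) are neighbours on the same strand with 6718 bases between them. Myod1 lies on chromosome 7 (46376474 to 46379099) and Mymk on chromosome 2 (27061636 to 27072179). Chromosome 1 holds Myog (134289989 to 134292548), Mstn (53061640 to 53068079) and Chrng (87204657 to 87212694). Chrna1 lies on chromosome 2 (73563215 to 73580338) and Ncam1 on chromosome 9 (49502136 to 49798925).

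The promoters of both receptor subunits are printed here because receptor genes are textbook targets of the myogenic factors. The 250 bases before the RefSeq start of each gene (GRCm38.p6) are given 5′ to 3′ on the strand of the gene, with the E-boxes CAGCTG and CAGGTG, the latter searched on both strands, in capitals. The Chrna1 window (chr2:73580339-73580588, minus strand) lies directly upstream of the annotated gene and the Chrng window (chr1:87205561-87205810, plus strand) lies inside the longer GENCODE span of Chrng.
Chrna1: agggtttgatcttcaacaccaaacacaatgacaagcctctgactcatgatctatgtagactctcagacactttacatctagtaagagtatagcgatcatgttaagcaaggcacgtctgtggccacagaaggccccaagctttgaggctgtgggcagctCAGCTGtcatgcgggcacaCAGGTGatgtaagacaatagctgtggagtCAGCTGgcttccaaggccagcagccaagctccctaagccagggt
Chrng: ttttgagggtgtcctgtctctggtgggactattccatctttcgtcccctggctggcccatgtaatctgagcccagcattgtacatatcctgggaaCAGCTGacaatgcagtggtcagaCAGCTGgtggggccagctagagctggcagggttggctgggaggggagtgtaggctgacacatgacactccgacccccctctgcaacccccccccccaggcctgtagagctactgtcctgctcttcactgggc
The Chrna1 window holds CAGCTG starting 92 and 44 bases before the start and CAGGTG starting 73 bases before it, and the Chrng window holds CAGCTG at 155 and 132 bases. Of the 6 of 10 genes with a window in the RefSeq table (Chrna1, Chrng, Mstn, Myf5, Myog and Pax7), 2 held either motif, against 27.7% of 32851 promoter windows of the same length. The shares for CAGCTG and CAGGTG alone were 13.0% and 17.2%, and any E-box (CANNTG) occurred in 66.2%. Exact matches to the MEF2 consensus, searched on both strands, occurred in 2.92% of the windows and in 0 of the 6. The Myog window holds ctatatttat, which misses that consensus only at its last base. The 0 therefore does not mean that these windows lack MEF2 sites. These matches describe the letters of the windows and are not measured binding sites.

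The libraries held 25927171 to 36725106 estimated counts. Between 76.4% and 81.4% of them fell on the 5 largest features, which left 4934057 to 8375626 counts for all other genes and makes rare transcripts imprecise. Summed CPM (counts relative to the TMM-scaled library size) of 8 tendon markers was 528 to 732 in the contralateral, 2894 to 2907 in the tenotomy and 2453 to 2661 in the uninjured libraries, with no marker at 0. Most of each sum was Col1a1, with means of 439, 2574 and 2286 CPM in that order of groups. Fmod differed little (101, 107 and 118) and Tnmd more (7.51, 27.9 and 18.55). The sums therefore do not measure tendon content. Summed CPM of 22 muscle fibre genes was 25390 to 28310 in the contralateral libraries but 2252 and 2267 in the tenotomy libraries. The uninjured libraries disagreed, with 2866 in replicate 1 and 19190 in replicate 2. Ckm, the muscle creatine kinase used here as the measure of muscle content, was at 454, 542 and 660 CPM in the contralateral, 63.0 and 61.5 in the tenotomy, and 80.2 and 535 in the uninjured libraries. All groups thus contained muscle RNA. Uninjured replicate 1 was near the cut tendons, though somewhat richer in muscle RNA, while uninjured replicate 2 was nearer to the contralateral tendons. In bulk tissue, fewer cells of a type and less RNA per cell cannot be told apart.

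At the cut tendon Myf6 and Chrna1 were lower than in the contralateral tendon, by 4.50-fold and 2.89-fold, and Ncam1 was 1.59-fold higher. Pax7, Myog, Myod1 and Mstn had lower mean levels but did not pass the threshold, an adjusted p of 0.05 in edgeR's quasi-likelihood test over all genes. Only 7 of the 10 genes had counts high enough to be tested, Myf5, Mymk and Chrng being below the filter on low counts. Of the 7, 2 were called lower and 1 higher, against 15.4% of all 16028 tested genes called lower and 13.6% called higher. Their median log2 fold change was -1.53, against -0.001 over all tested genes. Pax7 and Myog passed the filter only through libraries in which they were high, so the counts over the 7 genes describe them and support nothing further.

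**Figure D1:**
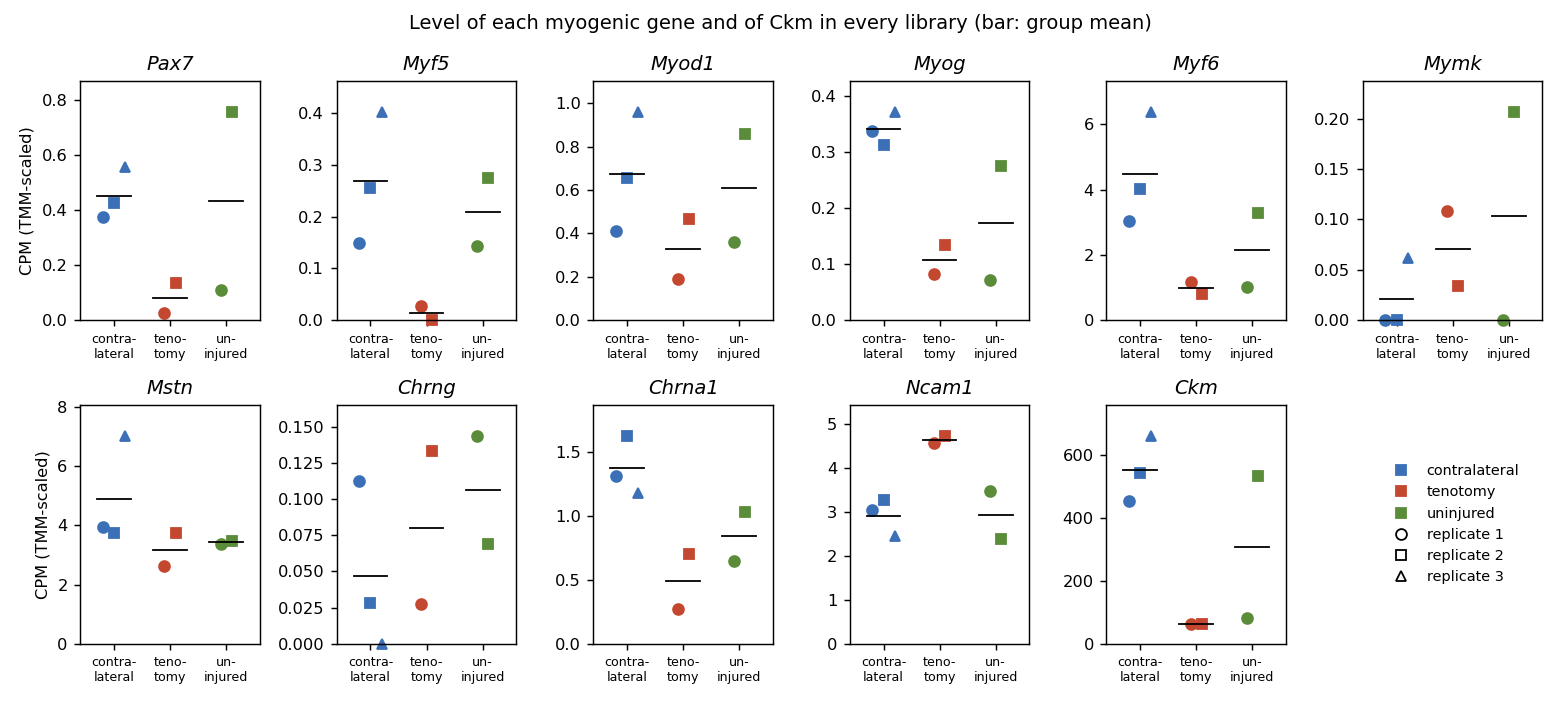
CPM (TMM-scaled, linear axes starting at 0) of the 10 genes and Ckm in each library of the contralateral, tenotomy and uninjured groups; points are libraries and bars are group means. Myf6 and Chrna1 of both tenotomy libraries lie below all 3 contralateral libraries, Ncam1 lies above them, and the uninjured libraries of Ckm lie far apart.

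Pax7 was counted 10, 15 and 18 times in the contralateral libraries, 1 and 4 times in the tenotomy libraries, and 3 and 22 times in the uninjured libraries. The tenotomy libraries lay below every contralateral library, and the uninjured libraries fell on either side. The log2 fold change of tenotomy over contralateral was -2.52 (SE 0.93, adjusted p = 0.0758). Pax7 passed in a fit of the compared groups alone (adjusted p = 0.00386, where 24.1% of 16014 genes were called lower) and with no filter on low counts (adjusted p = 0.0279, where 9.13% of 29100 genes were called lower). The call of Pax7 therefore depended on the fit.

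Myf5, the first of the myogenic factors to appear in the embryo, was counted 4, 9 and 13 times in the contralateral libraries, 1 and 0 times in the tenotomy libraries, and 4 and 8 times in the uninjured libraries. A count of 0 in tenotomy replicate 2 allows up to 0.1000 CPM (3 counts, counting error only). Both tenotomy libraries lay below the rest. Without the filter Myf5 passed against the contralateral group with an adjusted p of 0.0100, a call that rests on 1 count in the tenotomy group.

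Myod1, whose protein can turn fibroblasts into muscle cells, was counted 11, 23 and 31 times in the contralateral, 7 and 14 times in the tenotomy, and 10 and 25 times in the uninjured libraries. The groups overlapped, and the log2 fold change of tenotomy over contralateral was -1.09 (SE 0.57, adjusted p = 0.185). Myog gave 9, 11 and 12 counts in the contralateral, 3 and 4 in the tenotomy, and 2 and 8 in the uninjured libraries. The tenotomy libraries lay below the contralateral ones without overlap, at a log2 fold change of -1.65 (SE 0.61, adjusted p = 0.0756), and Myog passed when only the compared groups were fitted (adjusted p = 0.0193).

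Myf6, the factor of mature fibres, had the highest level per transcript length of the 4 myogenic factors in the contralateral tendon (TPM below). Its CPM was 3.04, 4.01 and 6.37 in the contralateral libraries, 1.17 and 0.800 in the tenotomy libraries, and 1.01 and 3.27 in the uninjured libraries. The tenotomy libraries and uninjured replicate 1 were low and the other 4 libraries high. Myf6 fell by 2.17 on the log2 scale between contralateral and tenotomy tendon (SE 0.53, adjusted p = 0.0230).

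Mymk was near the limit of counting, with 0, 0 and 2 counts in the contralateral, 4 and 1 in the tenotomy, and 0 and 6 in the uninjured libraries. Its partner in fusion, Mymx (myomixer), had at most 1 count in any library, so neither fusion protein could be compared between groups at this depth.

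Mstn was at 3.94, 3.73 and 7.02 CPM in the contralateral, 2.61 and 3.73 in the tenotomy, and 3.38 and 3.48 in the uninjured libraries. Its groups overlapped and contralateral replicate 3 stood highest. The log2 fold change of tenotomy over contralateral was -0.63 (SE 0.31, adjusted p = 0.155).

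Chrna1 was at 1.31, 1.62 and 1.18 CPM in the contralateral libraries, 0.272 and 0.700 in the tenotomy libraries, and 0.647 and 1.03 in the uninjured libraries. It fell by 1.53 on the log2 scale between contralateral and tenotomy tendon (SE 0.41, adjusted p = 0.0288). Chrng, the fetal subunit whose promoter is printed above, had 3, 1 and 0 counts in the contralateral, 1 and 4 in the tenotomy, and 4 and 2 in the uninjured libraries, with no order among the groups. The count of 0 in contralateral replicate 3 allows up to 0.0928 CPM.

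Ncam1 went the other way. It was at 3.04, 3.27 and 2.44 CPM in the contralateral libraries, 4.57 and 4.73 in the tenotomy libraries, and 3.49 and 2.37 in the uninjured libraries. Both tenotomy libraries lay above the other 5. The log2 fold change over contralateral was 0.67 (SE 0.20, adjusted p = 0.0421), with an adjusted p of 0.0878 in DESeq2.

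Among the 7 tested genes, Pax7, Myog, Myf6 and Chrna1 had both tenotomy libraries below all contralateral ones and Ncam1 had both above. Over all tested genes 31.8% were separated downward and 31.9% upward. The calls need all 5 libraries: leaving out any 1 contralateral or tenotomy library left 0 of these genes, and 0 of all genes, past the threshold in edgeR. Without uninjured replicate 1 or 2, 6 of 8 tested genes were called, 5 of them lower and 1 higher, with Myf5 now among those tested. Over all genes 42.9% and 43.5% were called in these fits. The number in the sample title puts tenotomy replicate 1 in one series with the contralateral libraries. Tenotomy replicate 2 falls in another with uninjured replicate 1, and uninjured replicate 2 stands alone. No label calls this series a batch. With that series as a covariate the contrast rests on tenotomy replicate 1 alone against the 3 contralateral libraries. It called 5 of 7 (Pax7 and Myod1 besides Myf6, Chrna1 and Ncam1), against 34.8% of all genes.

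Muscle content itself differed between these groups, since Ckm fell by 3.15 on the log2 scale at the cut tendon (SE 0.74, adjusted p = 0.0207) and all 22 muscle fibre genes fell, with a median log2 fold change of -3.22. Acta1, the skeletal actin, fell by 4.19 (SE 0.94, adjusted p = 0.0192). The 7 tested regulators had smaller differences than Ckm on this scale. The genes were therefore also compared as counts per 100000 Ckm counts, in a second edgeR fit that took the Ckm count as the library size. On that scale nearly every gene rose at the cut tendon: 89.2% of all tested genes were called higher, and the median log2 fold change was 3.12.

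Relative to Ckm, 3 of the 7 tested regulators were called higher at the cut tendon than in the contralateral tendon, and 0 lower. Their median log2 fold change was 1.61, between that of the muscle fibre genes (-0.10) and that of all tested genes (3.12). Ncam1 gave 668, 604 and 370 counts per 100000 Ckm counts in the contralateral, 7257 and 7696 in the tenotomy, and 4344 and 444 in the uninjured libraries. The muscle-poor libraries were thus the high ones. Its log2 fold change of tenotomy over contralateral was 3.77 (SE 0.95, adjusted p = 0.000489).

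Mstn gave 866, 688 and 1063 per 100000 Ckm counts in the contralateral, 4147 and 6070 in the tenotomy, and 4210 and 650 in the uninjured libraries. It rose by 2.55 on the log2 scale against Ckm (SE 0.92, adjusted p = 0.00810). Myod1 gave 90.7, 121 and 145 in the contralateral, 302 and 759 in the tenotomy, and 448 and 161 in the uninjured libraries, and rose by 2.13 (SE 1.04, adjusted p = 0.0461). For both genes the tenotomy ratios lay above every contralateral ratio, as they did for 97.2% of all tested genes.

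The other 4 did not pass relative to Ckm. Pax7 gave 82.5, 78.7 and 84.3 per 100000 Ckm counts in the contralateral, 43.2 and 217 in the tenotomy, and 134 and 142 in the uninjured libraries. Its contralateral ratios were almost equal, while the tenotomy ratios, from 1 and 4 counts, lay on either side of them (log2 fold change 0.61, SE 1.18, adjusted p = 0.614). This was the only tested regulator whose tenotomy and contralateral ratios overlapped, and its sign turned to -0.91 without tenotomy replicate 2.

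Myf6 gave 668, 740 and 965 in the contralateral, 1857 and 1301 in the tenotomy, and 1254 and 612 in the uninjured libraries, a log2 fold change of tenotomy over contralateral of 1.00 (SE 0.95, adjusted p = 0.307). Myog (1.44, SE 1.12, adjusted p = 0.207) and Chrna1 (1.61, SE 1.01, adjusted p = 0.120) lay between Myf6 and Mstn. So Myf6 and Chrna1, called lower on the CPM scale, had no lower mean ratio to Ckm. In a fit of the compared groups alone Myf6 (adjusted p = 0.000725) and Chrna1 (adjusted p = 0.000181) passed as higher relative to Ckm, as did 96.9% of all genes.

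**Figure D2:**
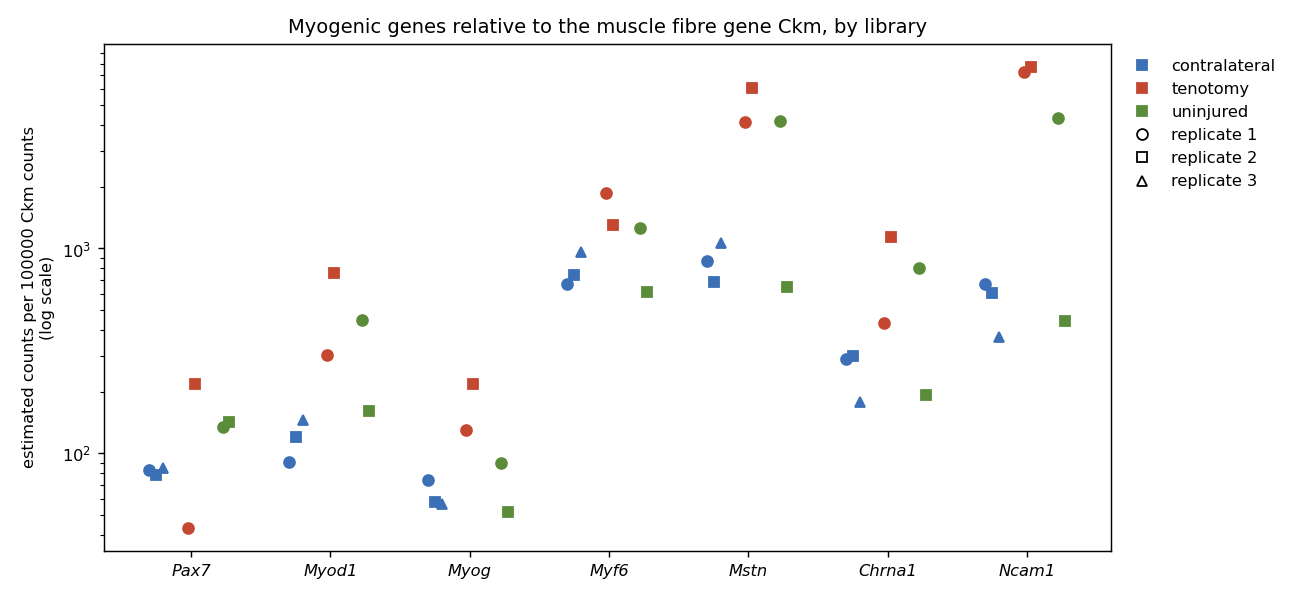
Counts of each gene per 100000 Ckm counts in each library (points, log axis) for the 7 tested genes by group and replicate. The tenotomy libraries and uninjured replicate 1 share high ratios of Ncam1 and Mstn, while the 2 tenotomy ratios of Pax7 lie on either side of the contralateral ones.

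**Figure D3:**
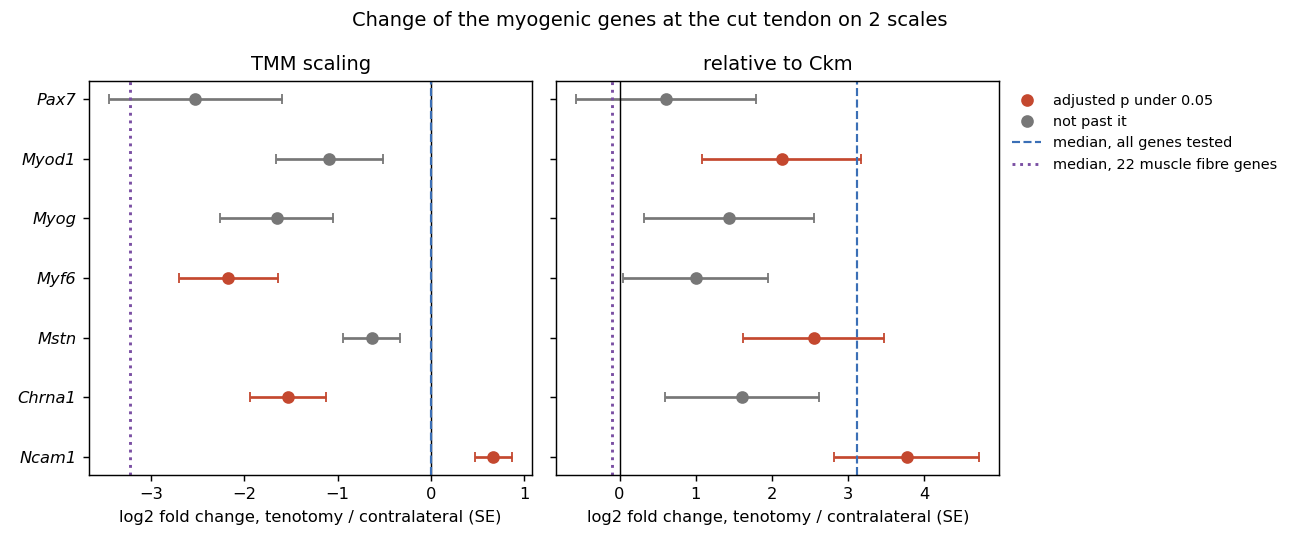
Log2 fold change of tenotomy over contralateral tendon, with standard errors, for the 7 tested genes on the TMM scale and relative to Ckm, with dashed and dotted lines at the medians of all tested genes and of the 22 muscle fibre genes. Pax7, Myf6, Myog, Chrna1, Myod1 and Mstn change sign between the scales and Ncam1 is positive on both.

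Per transcript length, in the deposited TPM (transcript abundance scaled to a common total), the order of the genes' levels could be compared. In the contralateral tendon Myf6 was highest, at 0.465, 0.613 and 0.770 TPM. Mstn followed at 0.243, 0.230 and 0.342 TPM and overlapped with Ncam1 at 0.130, 0.374 and 0.258. Myod1 (0.0391, 0.0620 and 0.0717), Chrna1 (0.0484, 0.0596 and 0.0340) and Myog (0.0413, 0.0383 and 0.0359) were lower and overlapped one another. Pax7 at 0.0101, 0.0176 and 0.0182 TPM overlapped with Myf5 at 0.0124, 0.0212 and 0.0263. Chrng and Mymk were lowest, at no more than 0.00675 and 0.00658 TPM. At the cut tendon Mstn (0.137 and 0.219), Ncam1 (0.135 and 0.164) and Myf6 (0.151 and 0.114) overlapped, so that Myf6 did not stand above them. The uninjured libraries gave both orders, with Myf6 and Mstn at 0.155 and 0.213 TPM in replicate 1 and at 0.467 and 0.201 in replicate 2. Ckm was at 59.5, 70.9 and 68.3 TPM in the contralateral tendon, far above every regulator.

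The Ncam1 gene yields several proteins, and its transcripts differed in share between libraries. The transcript of 848 codons was at 1.49, 1.22 and 1.09 CPM in the contralateral, 2.78 and 2.89 in the tenotomy, and 1.98 and 1.12 in the uninjured libraries. The transcript of 725 codons took 33.5%, 48.4% and 26.8% of the gene's counts in the contralateral libraries, 17.5% and 20.2% in the tenotomy libraries, and 20.8% and 37.0% in the uninjured libraries. The longest, of 1088 codons, was at 0.167, 0.373 and 0.322 CPM in the contralateral and 0.661 and 0.586 in the tenotomy libraries. In uninjured replicates 1 and 2 it was at 0.621 and 0.323 CPM, so replicate 1 lay between the tenotomy libraries. The transcripts of 848 and 1088 codons were thus higher in each tenotomy library than in each contralateral one, while that of 725 codons overlapped in CPM (0.651 to 1.58 against 0.799 and 0.954). A transcript of 849 codons also overlapped, at 0.260, 0 and 0.214 CPM in the contralateral and 0.328 and 0 in the tenotomy libraries. How reads were divided among transcripts is an estimate of the quantification and was not tested here.

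The shortest Ncam1 transcript, of 146 bases, weighed heavily on the gene's TPM. It received 1 count in contralateral replicates 2 and 3, and its short effective length turned each into 0.225 and 0.181 TPM of the gene's 0.374 and 0.258. In counts derived from TPM the log2 fold change of Ncam1 became -0.74 (adjusted p = 0.238), and without this transcript it was 0.41 (adjusted p = 0.244). The call of Ncam1 in edgeR on summed counts was thus not made on length-scaled TPM.

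**Figure D4:**
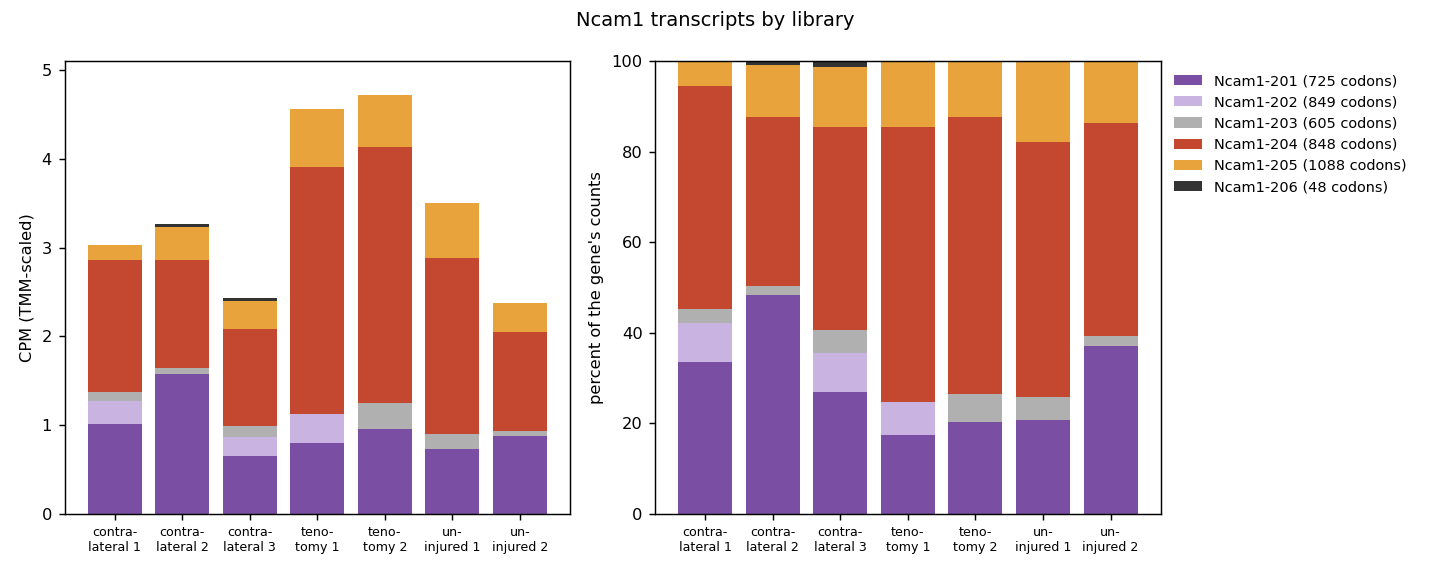
Ncam1 transcripts in each library as stacked bars, in CPM (left) and as percent of the gene's counts (right). The tenotomy libraries have the tallest segments of the transcript of 848 codons, at 2.78 and 2.89 CPM, and the smallest shares of that of 725 codons, at 17.5% and 20.2%.

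Markers of other cell types were measured beside Ncam1. Of 12 Schwann cell and nerve genes, 4 were higher at the cut tendon than in the contralateral tendon and 0 lower. Over all tested genes 13.6% were called higher and 15.4% lower. Among the 4 were Ngfr (log2 fold change 2.99) and Sox10 (0.89), the master regulator of Schwann cells. Gfap was another, with 0, 0 and 1 counts in the contralateral and 11 and 9 in the tenotomy libraries, and it passed the filter only through the libraries in which it was high. Summed CPM of the list was 151 to 170 in the contralateral, 112 to 114 in the tenotomy, and 80.3 and 247 in the uninjured libraries. Mbp, which encodes a myelin protein, was at 18.4 CPM on average against 36.3 in the contralateral tendon and did not pass (adjusted p = 0.147). The 7 natural killer cell genes summed to 0.112 to 0.484 CPM in the contralateral, 0.667 to 0.925 in the tenotomy, and 0.826 and 0.344 in the uninjured libraries. They were too few to test. Cartilage genes, 7 of 8 of which were higher, summed to 32.6 to 58.3 CPM in the contralateral, 429.2 to 429.4 in the tenotomy, and 222 and 52.65 in the uninjured libraries. The part of these cells in the rise of Ncam1 was not tested.

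Beyond Pax7, 15 of 17 genes of a muscle stem cell list could be tested, of which 3 rose and 2 fell at the cut tendon, with a median log2 fold change of 0.02. Over all tested genes 13.6% were called higher and 15.4% lower, so these counts are near the shares over all genes. Cdh15 (M-cadherin, which holds the stem cell to its fibre) fell from 14, 37 and 26 counts in the contralateral libraries to 4 and 0 in the tenotomy libraries (adjusted p = 0.0386). It passed the filter only through libraries in which it was high, and the count of 0 allows up to 0.1000 CPM. Itga7, an integrin of fibre and satellite cell, fell by 0.84 (adjusted p = 0.0323). Vcam1, an adhesion molecule of satellite cells that endothelium also carries, rose by 1.78 (adjusted p = 0.0309), and the chemokine receptor Cxcr4, which leukocytes also carry, rose by 1.53 (adjusted p = 0.0205). In the uninjured libraries Vcam1 was at 1.204 and 4.995 CPM, against 4.499 and 4.569 in the tenotomy libraries. Cxcr4 was at 0.723 and 1.22 CPM in the uninjured and 0.762 and 0.867 in the tenotomy libraries. At 0.2165 to 0.375 CPM in the contralateral libraries, Cxcr4 too passed the filter only through libraries in which it was high. The syndecan Sdc3 was the third to rise. Pax3, the paralogue of Pax7, was at 0.309 to 0.375 CPM in the contralateral and 0.367 and 0.381 in the tenotomy libraries (adjusted p = 0.745), and the quiescence receptor Calcr had at most 4 counts in a library. Macrophage genes, 8 of 10 of which rose, summed to 34.2 to 42.8 CPM in the contralateral and 131 to 134 in the tenotomy libraries. In the uninjured libraries they summed to 131.2 CPM in replicate 1 and 42.67 in replicate 2. The part of macrophages in the rise of Vcam1 and Cxcr4 was not tested.

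Of 16 partners of the myogenic factors in transcription and fusion, 15 were tested, and 3 rose while 8 fell (median -0.69). The shares over all tested genes were 13.6% and 15.4%. The falls were led by Rbm24, an RNA-binding splicing regulator of muscle, at -2.69 (adjusted p = 0.0167), and Mef2c, the transcription factor that works with myogenic factors, at -2.40 (SE 0.41, adjusted p = 0.0167). Mef2a, Mef2d, Six4, Eya1 and Smarcd3 also fell. Cdon, a surface receptor that promotes myogenesis, rose by 0.76 (adjusted p = 0.0167), and Tcf3, which encodes the E-protein partners of the myogenic factors, rose by 0.75 (adjusted p = 0.0209), with Tcf12 beside it. Cdon was at 5.20 to 5.98 CPM in the contralateral, 9.10 and 9.87 in the tenotomy, and 8.47 and 9.99 in the uninjured libraries. Its tenotomy level was thus that of uninjured tendon. Both Cdon and Tcf3 are also expressed outside muscle.

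Genes of embryonic and regenerating fibres fell more often than they rose, 4 against 1 of 8 (median -0.91). The shares over all tested genes were 15.4% lower and 13.6% higher. Myh3, the embryonic myosin heavy chain, fell from 5.51, 4.13 and 2.41 CPM in the contralateral libraries to 0.0816 and 0.167 in the tenotomy libraries (log2 fold change -5.01, SE 1.07, adjusted p = 0.0175). It passed the filter only through libraries in which it was high. Actc1, the cardiac actin of immature fibres, fell by 3.58 (adjusted p = 0.0360). Myl6b and Nes were the others to fall. Myh8, the perinatal myosin, did not pass (-0.68, adjusted p = 0.0647). Mybph, a myosin-binding protein, rose by 1.52 (SE 0.21, adjusted p = 0.0167) from 1.24, 0.911 and 0.897 CPM to 2.99 and 2.80, and stood at 3.95 and 5.23 in the uninjured libraries. Myosin and actin genes resemble one another, so reads may have been divided among them and with adult fibre genes.

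Of 12 further genes of the acetylcholine receptor and the nerve-muscle junction, 11 were tested, 5 fell and 1 rose at the cut tendon (median -1.08). The shares over all tested genes were 15.4% lower and 13.6% higher. Dok7 (-2.84, adjusted p = 0.0176), the cytoplasmic activator of MuSK, and Ache (-2.63, adjusted p = 0.0204), the synaptic esterase, had the largest falls. Musk, the receptor kinase that clusters acetylcholine receptors, fell by 2.31 (adjusted p = 0.0167) and its scaffold partner Rapsn by 2.22 (adjusted p = 0.0167). Colq, the collagen tail of the esterase, was the other to fall. Dok7, Ache and Colq passed the filter only through libraries in which they were high. The other receptor subunits did not pass: Chrnb1 was at -1.08 (adjusted p = 0.0770) and Chrnd at -1.06 (adjusted p = 0.237), while Chrne, the adult subunit, had 0 to 13 counts and was not tested. Agrn, the nerve- and tissue-derived signal to MuSK, rose by 0.74 (adjusted p = 0.0180).

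Of 15 genes of myostatin and activin signalling 14 were tested, 2 rose and 1 fell (median -0.26). These counts are no higher than the 13.6% and 15.4% over all tested genes would give, within the grain of so few genes. Inhba, the activin A subunit that signals through the same receptors as myostatin, rose from 0.937, 0.683 and 0.742 CPM in the contralateral to 2.77 and 2.90 in the tenotomy libraries (log2 fold change 1.86, SE 0.31, adjusted p = 0.0167). Fstl3, an extracellular inhibitor of both ligands, rose by 0.96 (adjusted p = 0.0384). Wfikkn2, which binds myostatin, fell by 1.33 (adjusted p = 0.0477). The ligand Gdf11 (-0.71, adjusted p = 0.0885), the receptor Acvr2b (-1.45, adjusted p = 0.0734) and the antagonist Fst (-0.25, adjusted p = 0.279) did not pass.

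**Figure D5:**
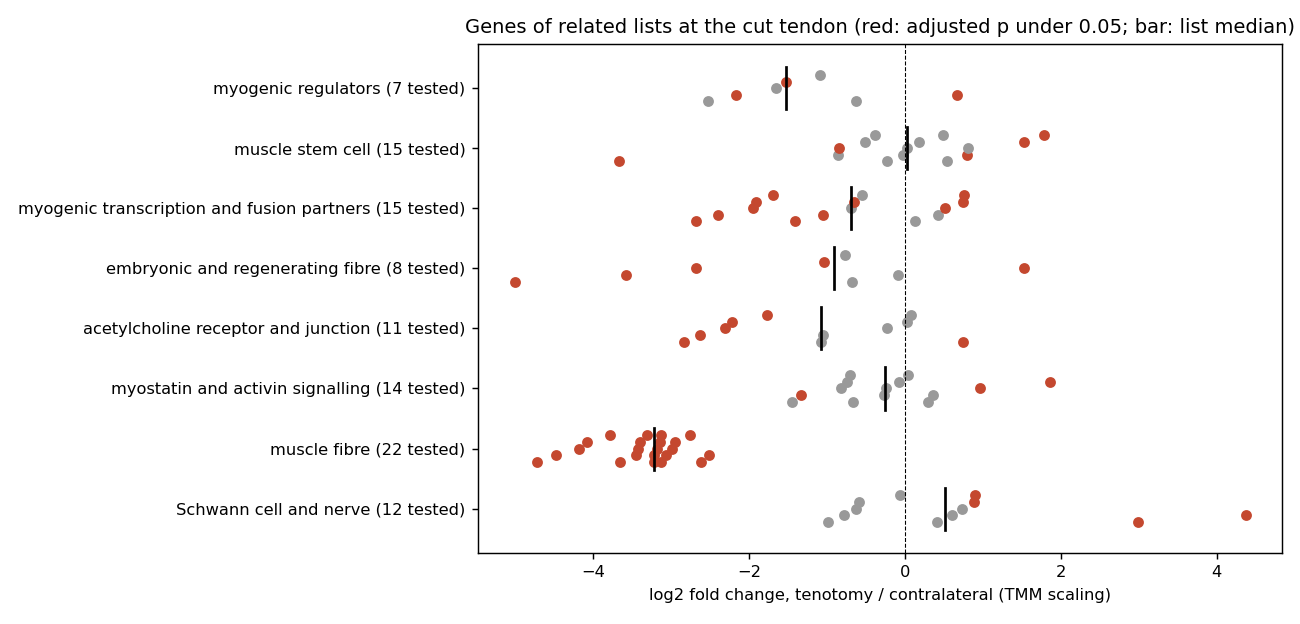
Log2 fold change of tenotomy over contralateral tendon (TMM scaling) for every tested gene of the regulators and of 7 related lists; points in red have an adjusted p under 0.05 and bars are list medians. All 22 muscle fibre genes lie left of 0 and are red, whereas the muscle stem cell list has a median of 0.02 with genes on either side.

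The same lists were also read relative to Ckm. Against the contralateral tendon 14 of 15 tested muscle stem cell genes, 12 of 14 myostatin and activin genes, 9 of 15 partners of the myogenic factors, 5 of 8 embryonic fibre genes and 5 of 11 junction genes were called higher, and 0 lower, where 89.2% of all genes were called higher. Their median log2 fold changes were 3.15, 2.86, 2.39, 2.15 and 2.07. No muscle fibre gene was called in either direction. Ckm, the denominator, is itself on that list, so its own ratio is fixed. The absence of calls does not mean constant ratios. For 13 of the 22 the tenotomy and contralateral ratios did not overlap, where 97.2% of all tested genes lay apart upward. Acta1 had a mean ratio of 268500 in the contralateral and 129500 in the tenotomy libraries. Actn3 went the other way, at 34260 and 52970.

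Compared with the uninjured tendon, the cut tendon showed no called difference for the 7 tested regulators on the TMM scale in edgeR, where 0% of all genes were called. At an unadjusted p under 0.05 there were 1741 such genes over all, among them Pax7 (log2 fold change -2.46, SE 1.00, adjusted p = 0.454) and Ncam1 (0.67, SE 0.23, adjusted p = 0.450). DESeq2 called 140 genes over all and gave none of the 7 regulators an adjusted p. Ncam1 of both tenotomy libraries lay above both uninjured ones, and the other 6 tested genes overlapped, with uninjured replicate 1 below at least 1 tenotomy library in each. The values of the others were -1.11 for Myf6 (adjusted p = 0.496), -0.83 for Chrna1 (adjusted p = 0.513), -0.93 for Myod1 (adjusted p = 0.579), -0.71 for Myog (adjusted p = 0.702) and -0.12 for Mstn (adjusted p = 0.904). This comparison shares its tenotomy libraries with the one against the contralateral tendon.

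Uninjured replicate 1 decides this comparison. Without it, with uninjured replicate 2 as the lone library and assumed to vary like the other groups, 4 of 8 tested regulators were called, where 25.1% of 17018 genes were called. Pax7 was then at -3.26 (adjusted p = 0.00409), Myf6 at -1.70 (adjusted p = 0.0105) and Ncam1 at 0.97 (adjusted p = 0.00538). Myf5, at 1 and 0 counts against 8, was the other (adjusted p = 0.0404). Relative to Ckm, 0 of the 7 were called against the uninjured tendon with both replicates (0.0749% of all genes), and 5 of 7 were called higher without uninjured replicate 1, as were 97.1% of all genes. Those 5 were Ncam1, Mstn, Chrna1, Myf6 and Myod1.

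Between the contralateral and the uninjured tendon, which differ by the burn and by the injury of the other limb, 0 of the 7 regulators were called, 0% of all genes were called in edgeR, and none of the 7 had an unadjusted p under 0.05, a level that 3084 genes over all reached. DESeq2 called 218 genes over all and gave an adjusted p only to Mstn (0.409) and Ncam1 (0.996) among the 7. Ncam1 (log2 fold change -0.004, SE 0.21, adjusted p = 0.994) and Pax7 (0.06, SE 0.70, adjusted p = 0.970) had the smallest differences. The largest were those of Myf6 (1.06, SE 0.49, adjusted p = 0.275), Myog (0.94, SE 0.57, adjusted p = 0.371) and Chrna1 (0.70, SE 0.38, adjusted p = 0.326). Without uninjured replicate 2, the muscle-rich one, Myf6 was at 2.16 (adjusted p = 0.00247) and was the 1 regulator called, where 32% of all genes were called, and Myog was at 2.18 (adjusted p = 0.0831). Relative to Ckm 0 of the 7 were called, against 18.2% of all genes, with Ncam1 nearest to the threshold (-2.10, SE 0.92, adjusted p = 0.0688). Without uninjured replicate 2, Ncam1, Mstn, Myod1 and Chrna1 were called lower relative to Ckm, as were 94% of all genes.

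The level of each regulator was set beside that of all other tested genes over the 7 libraries, as a description of log2 CPM. The libraries fall into a muscle-rich set (the contralateral ones and uninjured replicate 2) and a muscle-poor set, which many genes follow. Pearson's r with Ckm was 0.97 for Myf6, 0.95 for Myog, 0.93 for Pax7, 0.84 for Chrna1, 0.78 for Myod1, 0.60 for Mstn and -0.88 for Ncam1. The gene most like Myf6 was Ppp6c (r = 0.998), followed by Lrpap1 and Tob1. Smim13 was most like Myog (0.997), Cdc14a most like Chrna1 (0.996), Pick1 most like Pax7 (0.992), Mtmr12 most like Ncam1 (0.989), Skiv2l most like Myod1 (0.973) and Cox16 most like Mstn (0.966). Of the 21 genes ranked in the top 3 of a regulator, 0 were on the muscle fibre list. That list holds only 22 of the 16028 tested genes, so the 0 says nothing about likeness to fibre genes.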

How the data were processed

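RNA of 7 libraries of mouse hindlimb tendon was sequenced after a TruSeq preparation, per the labels. The submitters' processing notes name FastQC 0.11.4, kallisto without a version, and the build GRCh38, although the transcript IDs are mouse Ensembl IDs. Per the file headers, each deposited file gives length, effective length, estimated counts and TPM of 103639 transcripts. The deposited estimated counts are not normalized, and the deposited TPM are scaled by effective length.

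Transcript IDs were matched without version to GENCODE M21 (GRCm38): 101510 matched, 57625 with the same version, and 2129 were kept as single features. Expected counts from the deposited files were summed per gene and rounded. Genes under the filterByExpr limit of edgeR 4.0.16 (minimum count 10) were left out, which left 16028. Counts were scaled by TMM and tested in R 4.3.3 by the quasi-likelihood method of edgeR, with all 7 libraries in a single model of 3 group means and Benjamini-Hochberg adjustment over all genes for each comparison (threshold 0.05). SE is the log2 fold change divided by the square root of F. A second fit used each library's Ckm count as its size. Log2 CPM took a prior count of 2. The scripts were tested on simulated data.

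The 10 genes, the lists and the alternatives were chosen with earlier results of these data known. Named are the 10 genes and Ckm, a fixed set of partners, from each related list the 2 largest called rises and falls, and for likeness the 3 genes of highest r with a mean log2 CPM of at least 1. Also named, chosen after their values were seen, are Sdc3, Mef2a, Mef2d, Six4, Eya1, Smarcd3, Tcf12, Myl6b, Nes, Colq, Mbp, Ngfr, Gfap and Sox10. Some listed genes are counted in their lists but not reported here by name. Promoter sequences and starts are from RefSeq (GRCm38.p6). Alternatives were other scalings, DESeq2 1.42.0, limma-voom (limma 3.58.1), no filter, only the groups compared, length-scaled TPM, protein-coding transcripts, other muscle denominators, the series of the title number as a covariate, and leaving out each library.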

Additional observations from a re-analysis of the deposited data

How the results depend on the processing

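Of the 7 tested regulators, 3 were called between tenotomy and contralateral tendon. The count was 5 of 10 with no filter on low counts (Pax7 and Myf5 in addition), 5 with only the groups compared, 5 with the series of the title number as covariate, and 0 to 6 when 1 library was left out, where 6 to 8 genes were tested and the highest count includes Myf5. Against the uninjured tendon 0 were called, and 0 to 4, Myf5 included, with 1 library left out. Between contralateral and uninjured tendon 0 were called, 1 (Chrna1) with the title-number series and 0 to 1 (Myf6, without uninjured replicate 2) with 1 library left out. DESeq2 gave no regulator an adjusted p for tenotomy against uninjured tendon, so no count is given. Relative to Ckm the 3 calls of tenotomy over contralateral became 5 with only the groups compared, 5 with Acta1 as the denominator, and 1 to 5 with 1 library left out. The 0 calls against uninjured tendon became 0 to 5, and the 0 calls between contralateral and uninjured tendon became 1 (Ncam1) with Acta1 or with the summed muscle fibre list, and 0 to 4 with 1 library left out. Where a group kept 1 library, that library was assumed to vary like the others. Contralateral and uninjured libraries share no title-number series. With that covariate their contrast, and the call of Chrna1 in it, is linked only through the tenotomy libraries. Upper quartile scaling moved the median log2 fold change of all genes between tenotomy and contralateral tendon to 0.11. No paired analysis was possible because the replicate numbers follow accession order and the labels give no number shared between groups.

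Signs turned as follows, on the log2 scale. With length-scaled TPM, Ncam1 became -0.74 for tenotomy over contralateral and 1.32 for contralateral over uninjured (0.17 without its shortest transcript, an alternative chosen after seeing the data), and Pax7 relative to Ckm became 0.42 for tenotomy over uninjured (0.38 with Acta1 as the denominator). With the title-number series, tenotomy over uninjured became 0.11 for Chrna1, 0.14 for Mstn, 0.37 for Myod1, 0.86 for Myog and 0.30 for Pax7. This contrast then rests on tenotomy replicate 2 against uninjured replicate 1 alone. For contralateral over uninjured, Ncam1 became 0.012 with limma-voom and 0.009 with no filter, and Pax7 became -0.003 with upper quartile scaling. Leaving out 1 library gave, for contralateral over uninjured, -0.25 to 0.30 for Ncam1, -0.73 to 2.04 for Pax7 and -0.33 to 0.93 for Myod1. For tenotomy over uninjured it gave -0.39 to 0.13 for Mstn and -1.35 to 0.53 for Myog. Relative to Ckm it gave, for contralateral over uninjured, -1.67 to 0.38 for Chrna1, -2.27 to 0.43 for Mstn, -0.65 to 0.38 for Myf6, -0.53 to 0.25 for Myog and -3.01 to 0.28 for Ncam1. It gave -0.15 to 1.97 for Chrna1 and -1.66 to 0.64 for Pax7 for tenotomy over uninjured, and -0.91 to 1.39 for Pax7 for tenotomy over contralateral. None of these turned values changed a call except Ncam1 with length-scaled TPM. Apart from that transcript and the libraries left to compare by the title-number series, the cause was not tested. Low counts limit Pax7, Myf5, Myog, Mymk and Chrng most.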
